A study of Homo sapiens with 12 samples.

Results

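The genes described here are the 2 regulators NFE2L2 and KEAP1 and the 7 antioxidant target genes NQO1, HMOX1, GCLC, GCLM, TXNRD1, SRXN1 and OSGIN1. They were chosen by symbol, as known parts of the NRF2 pathway, with earlier results of these data known. All 9 were found among the 19251 genes listed for each library. RNA was sequenced from a pair of wild-type ovarian cancer cell lines, CAOV3, labelled high grade serous, and TOV21G, labelled clear cell. Cells of each line were kept in DMEM with 10% FBS, either with 10% ascites for 16 h or without it. Ascites is the fluid that gathers in the abdomen of people with ovarian cancer, and whose fluid was used is not stated. There were 3 libraries in each of 4 groups: CAOV3 control, CAOV3 ascites, TOV21G control and TOV21G ascites. No mock addition to the control cultures is described, each histological type stood on 1 line, and nothing says that the 3 libraries of a group came from separate cultures. P-values therefore measure the spread between these libraries, which may be technical.

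NRF2, the protein of NFE2L2, is the main transcription factor of the oxidative stress response. KEAP1 holds NRF2 for ubiquitination and breakdown in resting cells. When electrophiles or oxidants modify cysteines of KEAP1, NRF2 escapes, pairs with a small MAF protein and activates genes that carry the antioxidant response element, unless the repressor BACH1 occupies that element. NRF2 is regulated largely at the level of its protein, which was not measured here, and several tumour types, clear cell ovarian cancer among them, are known for a raised NRF2 response.

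The element NRF2 binds has the core TGACNNNGC, and the strongest sites have the form TGANTCAGC. To show where the members carry these letters near their starts, RefSeq promoter windows (GRCh38.p14, 250 bases before to 50 after a start) were searched on both strands. Of the 9 members 8 had a window, 11 windows in all, and HMOX1 had none. TGACNNNGC stood in 4 of the 11 windows, against 13.3% of 35116 windows of the same length. TGANTCAGC stood in 1 of the 11, against 1.36% of the 35116. The motifs overlap, since TGANTCAGC also matches TGACNNNGC when its N is C. The sites found are printed on the strand that carries the motif, with the motif in capitals and 10 bases on each side.
KEAP1, chr19:10502807-10502835, minus strand: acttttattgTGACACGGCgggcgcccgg
KEAP1, chr19:10502784-10502812, plus strand: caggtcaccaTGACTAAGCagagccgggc
GCLM, chr1:93909446-93909474, plus strand: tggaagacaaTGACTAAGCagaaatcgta
TXNRD1, chr12:104215670-104215698, plus strand: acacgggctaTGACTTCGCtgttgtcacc
TXNRD1, chr12:104215761-104215789, minus strand: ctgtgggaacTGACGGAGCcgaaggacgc
TXNRD1, a later start, chr12:104286920-104286948, minus strand: agagtcagaaTGACAAAGCagaaatccac
OSGIN1, chr16:83953131-83953159, minus strand: ttcataagcgTGAGTCAGCaggggcccgt
The GCLM site and the second KEAP1 site had the same 9 letters, TGACTAAGC. The KEAP1 and GCLM motifs began 54, 31 and 34 bases before the start, the TXNRD1 motifs 99, 8 and 102 bases before it, and the OSGIN1 motif 99 bases before it. Both KEAP1 sites belong to the later of its 2 starts, and the window of the earlier KEAP1 start held no match. A match is a description of the reference letters and no evidence of binding, and its absence says only that these letters are not in the window. The members with a site differed between the lines in opposite directions, as given below: GCLM and OSGIN1 were higher in TOV21G, KEAP1 and TXNRD1 lower.

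The libraries held 26697609 to 34491304 reads each. Values are normalised read counts: reads divided by a size factor of the library. A gene was called where the adjusted p was under 0.05 in limma with Benjamini-Hochberg adjustment over 17616 tested genes, and log2 differences are on the scale of log2(value + 1). Of the markers of line identity, the Mullerian marker PAX8 averaged 19.1 in the CAOV3 controls and 7032 in the TOV21G controls, and WT1, a serous marker, 4.59 and 228, so these markers were low in the line labelled serous. Summed epithelial markers (5 of 5 listed) were 132000 to 133000 in CAOV3 controls, 153000 to 163000 in CAOV3 ascites, 11000 to 12400 in TOV21G controls and 10400 to 12000 in TOV21G ascites. In bulk RNA, fewer cells of a type and less RNA per cell cannot be told apart.

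Between the untreated lines all 9 members differed, and the targets did not move as a block. HMOX1, NQO1 and GCLM were much higher in TOV21G, SRXN1 and OSGIN1 were modestly higher, TXNRD1 and GCLC were lower by over a factor of 2, and KEAP1 and NFE2L2 were lower by less than that. Thus 5 of 9 were higher and 4 lower in TOV21G, and 5 differed by at least 1 on the log2 scale. The background was high: 82.2% of the tested genes were called between the lines (40.8% higher and 41.4% lower in TOV21G), and 42.3% were called with a log2 difference of at least 1 in size. The median size of the log2 difference was 1.25 over the members and 0.81 over all tested genes. The control groups of the lines did not overlap for any of the 9, against 82.6% of all tested genes. Each of the 9 calls was made in 20 of 20 alternative analyses.

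**Figure D1:**
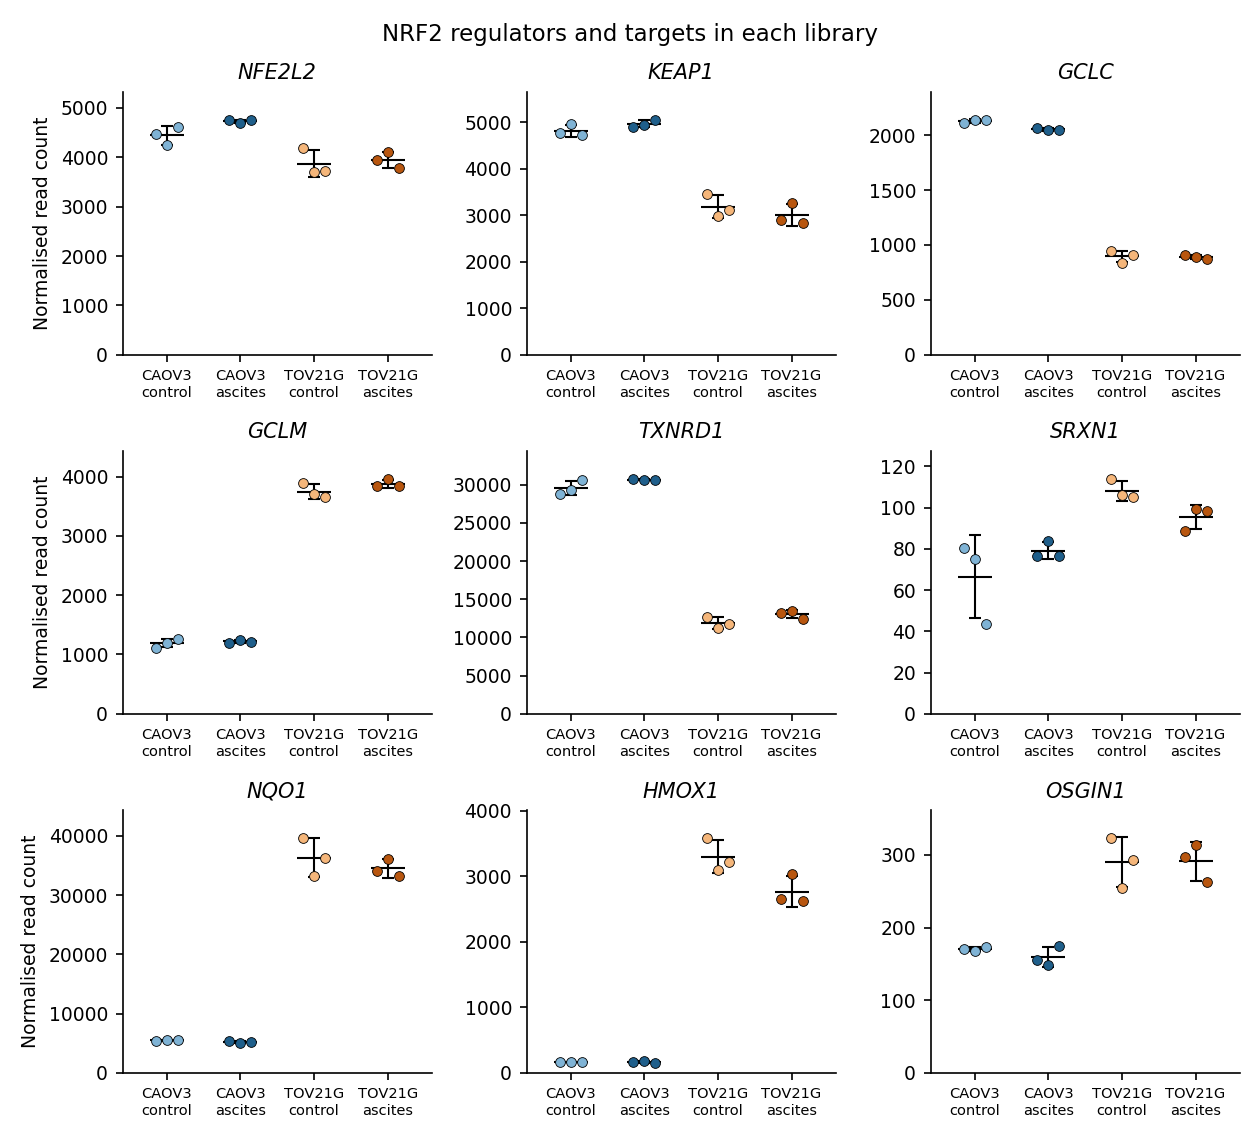
Normalised read count of each of the 9 members in each of the 12 libraries, 1 point per library and a bar at each group mean. The lines separate clearly for HMOX1, NQO1 and GCLM, while control and ascites libraries of a line lie close together, with a low SRXN1 point in CAOV3 control 3.

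NFE2L2 (ENSG00000116044, chromosome 2, 177227595 to 177392697, minus strand; this and the following gene positions are from GENCODE 29 on GRCh38) had 4466, 4241 and 4618 normalised reads in the CAOV3 controls. Its values in the TOV21G controls were 4195, 3706 and 3717. Every TOV21G control lay below every CAOV3 control, but the gap was small, and the log2 difference, TOV21G minus CAOV3, was -0.20 ± 0.05 (SE, n = 3 per line; limma adjusted p = 0.00282). Of all tested genes 85.7% differed by at least as much. The exons of NFE2L2 overlap those of other annotated genes, as do those of NQO1, GCLC, SRXN1 and OSGIN1. Strandedness is not given, and the counts of these members are uncertain to that extent. For SRXN1 and OSGIN1 the overlapping gene lies on the same strand, and for GCLC 1 of the 2 overlapping genes does. NFE2L2 is overlapped by genes on both strands.

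KEAP1 (ENSG00000079999, chromosome 19, 10486120 to 10503741, minus strand), the adaptor that brings NRF2 to the CUL3 ubiquitin ligase, had 4759, 4956 and 4724 normalised reads in the CAOV3 controls. In TOV21G the controls had 3452, 2975 and 3107. The line groups did not overlap, and KEAP1 was 1.52-fold lower in TOV21G (log2 difference -0.60 ± 0.06, SE; limma adjusted p = 4.573e-07).

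HMOX1 (ENSG00000100292, chromosome 22, 35380361 to 35394214, plus strand) encodes heme oxygenase, which opens heme to biliverdin, iron and carbon monoxide, and is a gene BACH1 is well known to repress. Its CAOV3 control values were 162, 166 and 157 normalised reads. In the TOV21G controls it stood at 3581, 3099 and 3212. This was the largest line difference among the members, 20.2-fold higher in TOV21G (log2 difference 4.34 ± 0.08, SE; limma adjusted p = 1.445e-14), and 9.45% of the tested genes differed by at least as much. BACH1 itself averaged 1844 ± 89.2 (SD, n = 3) in the CAOV3 controls and 646 ± 27.6 in the TOV21G controls (log2 difference -1.51; limma adjusted p = 7.106e-12). Whether the BACH1 level bears on the HMOX1 difference was not tested.

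NQO1 (ENSG00000181019, chromosome 16, 69706996 to 69726951, minus strand), a quinone reductase widely used as a readout of NRF2, had 5392, 5455 and 5556 normalised reads in the CAOV3 controls. The TOV21G controls had 39600, 33130 and 36249. It was 6.63-fold higher in TOV21G (log2 difference 2.73 ± 0.06, SE; limma adjusted p = 4.667e-14). The spread over the TOV21G controls was wide in reads (SD 3235) and small beside the gap between the lines.

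GCLC and GCLM encode the catalytic and the modifier subunit of glutamate-cysteine ligase, the rate-limiting enzyme of glutathione synthesis, and they differed between the lines in opposite directions. GCLC (ENSG00000001084, chromosome 6, 53497341 to 53616970, minus strand) had 2108, 2136 and 2137 normalised reads in the CAOV3 controls. In the TOV21G controls GCLC had 943, 839 and 906. Each TOV21G value was well below every CAOV3 value, and GCLC was 2.38-fold lower in TOV21G (log2 difference -1.25 ± 0.04, SE; limma adjusted p = 6.518e-12). GCLM (ENSG00000023909, chromosome 1, 93885205 to 93909456, minus strand) had 1114, 1200 and 1258 in the CAOV3 controls. For the TOV21G controls the GCLM values were 3888, 3706 and 3647. GCLM was thus 3.15-fold higher in TOV21G (log2 difference 1.65 ± 0.05, SE; limma adjusted p = 5.454e-13). Per kilobase of exon, the ratio of GCLM to GCLC was 0.893 ± 0.0479 (SD, n = 3; range 0.844 to 0.939) in the CAOV3 controls and 6.68 ± 0.327 (range 6.42 to 7.05) in the TOV21G controls. By this measure the transcript of the catalytic subunit was slightly the higher of the pair in CAOV3 and that of the modifier subunit in TOV21G. The exon lengths are unions over all annotated transcripts, and GCLC exons overlap those of other genes, so the order in CAOV3 is uncertain.

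TXNRD1 (ENSG00000198431, chromosome 12, 104215779 to 104350305, plus strand) encodes cytosolic thioredoxin reductase, which passes electrons from NADPH to thioredoxin. It had 28827, 29365 and 30570 normalised reads in the CAOV3 controls. The TOV21G controls were at 12732, 11215 and 11778. Among the targets TXNRD1 thus went with GCLC, at 2.49-fold lower in TOV21G (log2 difference -1.31 ± 0.05, SE; limma adjusted p = 2.349e-11).

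SRXN1 (ENSG00000271303, chromosome 20, 646615 to 653370, minus strand), sulfiredoxin, which restores overoxidised peroxiredoxins, was the member with the fewest reads. It had 80.6, 75.3 and 43.5 normalised reads in the CAOV3 controls, the last being the lowest SRXN1 value of all 12 libraries. The TOV21G controls had 114, 106 and 105. SRXN1 was 1.67-fold higher in TOV21G (log2 difference 0.74 ± 0.19, SE; limma adjusted p = 0.00272), and 0.47 without CAOV3 control 3. OSGIN1 (ENSG00000140961, chromosome 16, 83948282 to 83966332, plus strand), an oxidative stress-induced growth inhibitor, had 170, 168 and 173 in the CAOV3 controls. Its TOV21G control values were 323, 255 and 292. OSGIN1 was 1.69-fold higher in TOV21G (log2 difference 0.76 ± 0.10, SE; limma adjusted p = 1.353e-05).

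**Figure D2:**
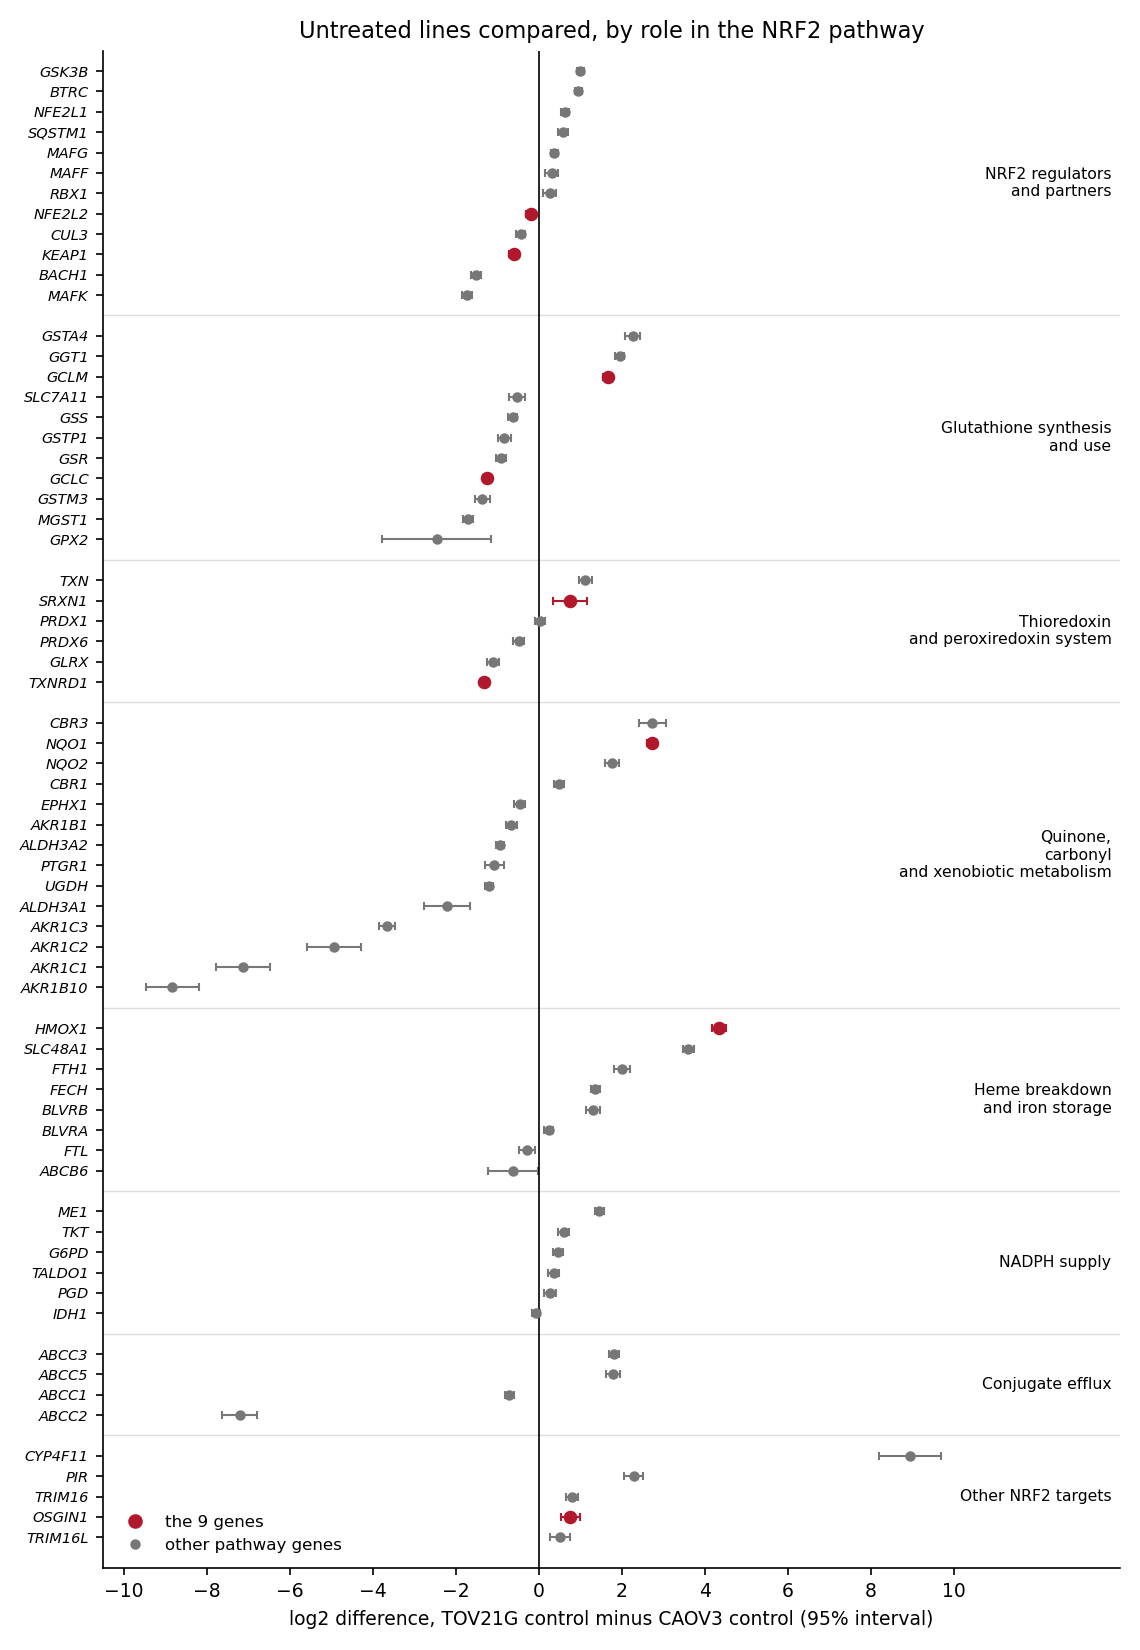
Log2 difference between the untreated lines (TOV21G minus CAOV3) for the members and the other genes of the pathway lists, 1 point per gene, grouped by role. Members of most roles lie on both sides of 0, while the other NRF2 targets all lie above 0, and so do the NADPH supply genes apart from IDH1 just below it; the fitted values of genes at or near 0 reads in a line, such as CYP4F11 and AKR1B10, depend on the pseudocount.

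Within a line, levels per kilobase of exon set the members in order. In the CAOV3 controls TXNRD1 was highest at 4411 ± 133 normalised reads per kilobase (SD, n = 3), followed by NQO1 at 1680 ± 25.5, KEAP1 at 1280 ± 33.2 and NFE2L2 at 743 ± 31.7. GCLC (246 ± 1.94), GCLM (219.7 ± 13.3), HMOX1 (67.3 ± 1.73), OSGIN1 (49.3 ± 0.781) and SRXN1 (24.6 ± 7.42) came below. In the TOV21G controls NQO1 was first at 11164 ± 994, followed by TXNRD1 at 1775 ± 114, HMOX1 at 1371 ± 105 and KEAP1 at 845 ± 65.5. GCLM (691 ± 23.2) and NFE2L2 (648 ± 46.7) came next and overlapped over the libraries, and GCLC (103.6 ± 6.12), OSGIN1 (83.8 ± 9.88) and SRXN1 (40.1 ± 1.80) were last. HMOX1 stood below GCLC and GCLM in CAOV3 and above both in TOV21G. The ratio of KEAP1 to NFE2L2 per kilobase was 1.73 ± 0.119 in the CAOV3 controls and 1.3 ± 0.0265 in the TOV21G controls. Exon lengths are unions over all annotated transcripts, so the order rests on that length.

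The wider pathway was taken from 8 lists by role, 67 genes with the members included, of which 66 were tested and 1 (UGT1A6) was not analysed here. Between the untreated lines 34 were higher in TOV21G, 29 lower and 3 not called. The background over all tested genes was 82.2% called, 40.8% higher and 41.4% lower in TOV21G. The median log2 difference was 0.25 over the lists and -0.02 over all tested genes. The lists were not uniform. All 5 genes of the list of other NRF2 targets and all 5 called genes of NADPH supply were higher in TOV21G, as were 6 of 8 genes of heme breakdown and iron storage, with FTL the only one called lower. In contrast 10 of 14 genes of quinone, carbonyl and xenobiotic metabolism and 8 of 11 of glutathione synthesis and use were lower in TOV21G. Regulators and partners split into 7 higher and 5 lower, the thioredoxin system into 2 higher and 3 lower, and conjugate efflux into 2 and 2. The genes not called were PRDX1, IDH1 and ABCB6. FTL, PRDX1 and ABCB6 are named because the counts single them out, after their values were seen.

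The genes of these lists that were furthest above CAOV3 in TOV21G, beside HMOX1 and NQO1, were as follows. SLC48A1, a heme transporter of the lysosome membrane, averaged 611 ± 35.1 normalised reads in the CAOV3 controls and 7445 ± 460 in the TOV21G controls (log2 difference 3.60 ± 0.06, SE; limma adjusted p = 6.487e-15). FTH1, the heavy chain of ferritin, averaged 75911 ± 2972 and 304148 ± 29023 (log2 difference 1.999). CBR3, a carbonyl reductase, averaged 36.6 and 250 (log2 difference 2.73), PIR, an iron-binding nuclear protein, 151 and 738 (2.28), and GSTA4, a glutathione transferase acting on lipid aldehydes, 159 and 763 (2.26). CYP4F11, a fatty acid hydroxylase, was at 0 reads in all 3 CAOV3 controls and averaged 489 ± 20.6 in the TOV21G controls, at least 153-fold higher against a floor of 3 reads per CAOV3 library. The list median above is the same with CYP4F11 at that bound.

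On the other side stood the aldo-keto reductases, which reduce carbonyls and are also used as human NRF2 readouts. AKR1B10 averaged 570 ± 76.1 normalised reads in the CAOV3 controls and had 0, 0 and 0.897 in the TOV21G controls. AKR1C1 averaged 1036 and 7.33, AKR1C2 120 and 3.22, and AKR1C3 1304 and 102 (log2 difference -3.66; limma adjusted p = 1.140e-13). These AKR1C genes are similar in sequence, so how reads were divided among them is uncertain. ABCC2, a pump for glutathione conjugates, averaged 3174 and 21.2 (log2 difference -7.22), and MGST1, a membrane glutathione transferase, 4218 and 1300 (-1.70). MAFK, a small MAF partner of NRF2, averaged 1747 and 528 (-1.73). All 14 of these genes, BACH1 included and HMOX1 and NQO1 aside, were called in 20 of 20 alternative analyses. NQO1 and AKR1C3, both commonly read as NRF2 targets, were thus separated between the same lines in opposite directions.

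Ascites was then compared with control within each line. In CAOV3 none of the 9 members passed the test (background 1.73% of the 17616 tested genes called, 0.636% higher and 1.1% lower with ascites). In TOV21G none passed either (background 0.409%, 0.142% higher and 0.267% lower). Against backgrounds this low, 0 of 9 is near the share over all genes. At an unadjusted p under 0.05 in limma the counts were 0 in CAOV3 and 2 in TOV21G, HMOX1 and TXNRD1. EdgeR called 0 members in each line, and DESeq2 called 0 in CAOV3 and 1 in TOV21G, HMOX1. The median log2 change of the members was 0.05 in CAOV3 and -0.01 in TOV21G, beside -0.00207 and -0.02 over all tested genes. The median size of the change was 0.05 and 0.07, beside 0.09 and 0.08.

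Given the spread between these libraries, which may be technical, the intervals limit how large a change could be. They are per gene, without adjustment over the 9 members. In each line the 95% interval of 7 of the 9 members lay inside a 1.25-fold change either way, that of 8 inside 1.5-fold and that of all 9 inside 2-fold. The outermost bounds were -0.32 and 0.71 on the log2 scale in CAOV3 and -0.60 and 0.24 in TOV21G. The widest interval in each line was that of SRXN1.

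**Figure D3:**
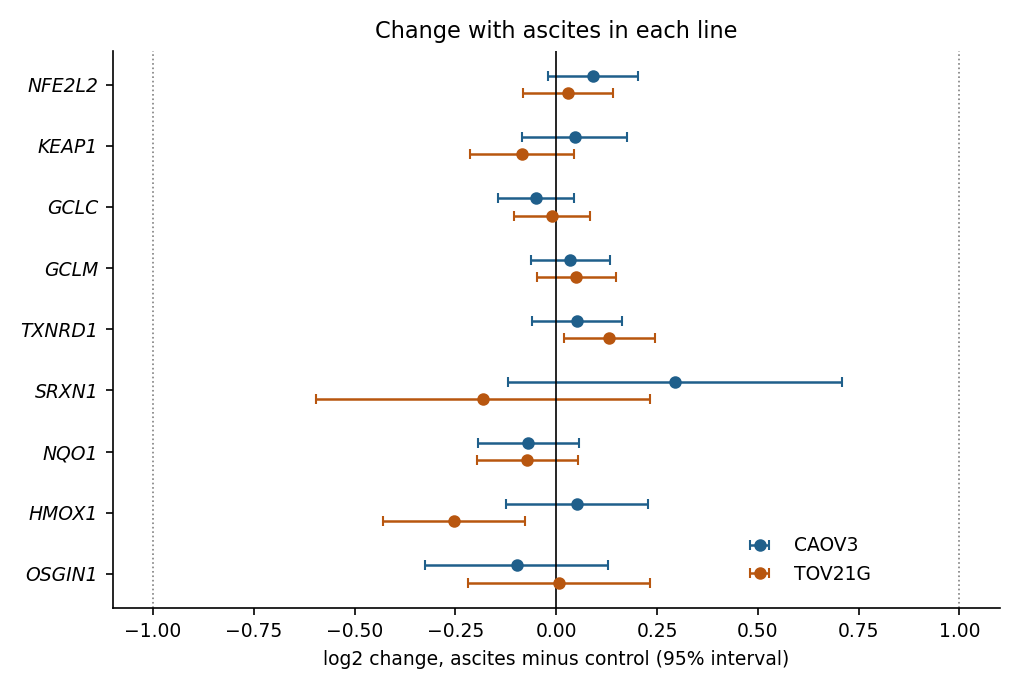
Log2 change with ascites (ascites minus control) of each member in CAOV3 and TOV21G, points for the fitted change and bars for the 95% interval from limma. All 18 points lie between -0.25 and 0.29, no change passed the adjusted threshold, and in TOV21G the interval of HMOX1 lies below 0 and that of TXNRD1 above it.

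In CAOV3 the regulators with ascites were close to their controls. NFE2L2 had 4747, 4689 and 4751 normalised reads with ascites, each above its highest control of 4618. This gave the lowest adjusted p of the 9 in CAOV3, with a log2 change of 0.09 ± 0.05 (SE, n = 3 per group; limma adjusted p = 0.502). KEAP1 had 4906, 4949 and 5043, within or just above the controls (log2 change 0.05; adjusted p = 0.825 in limma). The ratio of KEAP1 to NFE2L2 per kilobase was 1.67 ± 0.0232 with ascites.

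Among the targets in CAOV3, NQO1 had 5302, 5091 and 5242 with ascites, all below the lowest control of 5392. Its mean was 5212 ± 109 (SD, n = 3) against 5468 ± 82.8, and the log2 change of -0.07 did not pass (limma adjusted p = 0.677). GCLC had 2068, 2044 and 2048, again all below the controls, at a log2 change of -0.05 (limma adjusted p = 0.688). TXNRD1, at 30723, 30616 and 30621, lay just above its highest control of 30570, at 0.05 (limma adjusted p = 0.748). Groups did not overlap for 4 of 9 members, NFE2L2, NQO1, GCLC and TXNRD1, against 24.2% of all tested genes.

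The other CAOV3 targets overlapped their controls. HMOX1 had 164, 187 and 153 with ascites, GCLM 1199, 1240 and 1217, and OSGIN1 155, 148 and 175. Their log2 changes were 0.05, 0.04 and -0.10 (limma adjusted p = 0.868, 0.822 and 0.765). SRXN1 had 76.6, 83.8 and 76.7, with the largest log2 change of the members in CAOV3, 0.29 ± 0.19 (SE; limma adjusted p = 0.575). That value rested on CAOV3 control 3: without it the change was 0.02 (limma adjusted p = 0.996).

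In TOV21G the member furthest from its controls was HMOX1. Its ascites values were 2650, 3035 and 2616 normalised reads, all below the lowest control of 3099. The mean was 2767 ± 233 (SD, n = 3) with ascites and 3297 ± 252 in the controls, a log2 change of -0.25 ± 0.08 (SE; limma adjusted p = 0.348). Adjusted p was 0.0789 with edgeR and 0.0379 with DESeq2, and over the 20 alternatives it ran from 0.0379 to 0.837 with log2 changes from -0.32 to -0.19. Without TOV21G control 1, its highest control, the change was -0.19 (limma adjusted p = 0.779). The other gene with an unadjusted p under 0.05 was TXNRD1, at 13136, 13522 and 12455 with ascites, of which the last lay inside the control range. TXNRD1 had a log2 change of 0.13 ± 0.05 (SE; limma adjusted p = 0.468), opposite in sign to that of HMOX1.

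For the remaining TOV21G members, NFE2L2 had 3937, 4108 and 3789 with ascites (log2 change 0.03; limma adjusted p = 0.895). KEAP1 had 2906, 3267 and 2822 (-0.08; limma adjusted p = 0.672), and the ratio of KEAP1 to NFE2L2 per kilobase was 1.21 ± 0.0496. NQO1 had 34137, 36157 and 33149 (-0.07; limma adjusted p = 0.713), all inside the control range. GCLC had 906, 888 and 871 (-0.01; limma adjusted p = 0.971) and GCLM 3840, 3957 and 3833 (0.05; limma adjusted p = 0.749). The ratio of GCLM to GCLC per kilobase was 6.96 ± 0.182 with ascites in TOV21G and 0.947 ± 0.0215 with ascites in CAOV3, close to the control ratio of each line. OSGIN1 had 297, 314 and 262 (0.01; limma adjusted p = 1). SRXN1 had 88.6, 99.1 and 98.4, all below the lowest control of 105, at -0.18 (limma adjusted p = 0.781). Groups did not overlap for 2 of 9 members, HMOX1 and SRXN1, against 11.1% of all tested genes.

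The response was also compared between the lines as an interaction, TOV21G change minus CAOV3 change. None of the 9 members passed (background 0.545% of tested genes, 0.238% positive and 0.307% negative). Neither edgeR nor DESeq2 called a member after adjustment, and DESeq2 gave SRXN1 no adjusted p. At an unadjusted p under 0.05 the count was 1, HMOX1, with each of limma, edgeR and DESeq2. HMOX1 had a difference of -0.31 ± 0.11 (SE; limma adjusted p = 0.338) and SRXN1 of -0.48 (limma adjusted p = 0.497), which was -0.20 without CAOV3 control 3. The 95% interval of the difference lay inside 2-fold for 8 of 9 members, with outermost bounds of -1.06 and 0.43.

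Within TOV21G the members shared an order of libraries. TOV21G control 1 was the highest control for 9 of 9 members, against 49% of all tested genes, and TOV21G control 2 the lowest for 7 of 9, against 45.8%. TOV21G ascites 2 was the highest ascites library for 8 of 9, GCLC being the exception, against 48.5%, and TOV21G ascites 3 the lowest for 8 of 9, against 44.4%. The first within-group axis of TOV21G, over 11446 genes with a mean of at least 100, held 71.3% of the within-group variance. It set TOV21G control 1 (score -12.1) and TOV21G ascites 2 (-11.2) against TOV21G control 2 (10.8) and TOV21G ascites 3 (8.95). In CAOV3 the first such axis held 39.4%, and no library was highest for more than 6 of 9 members. What this axis contributes to the ascites values of the members was not tested.

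**Figure D4:**
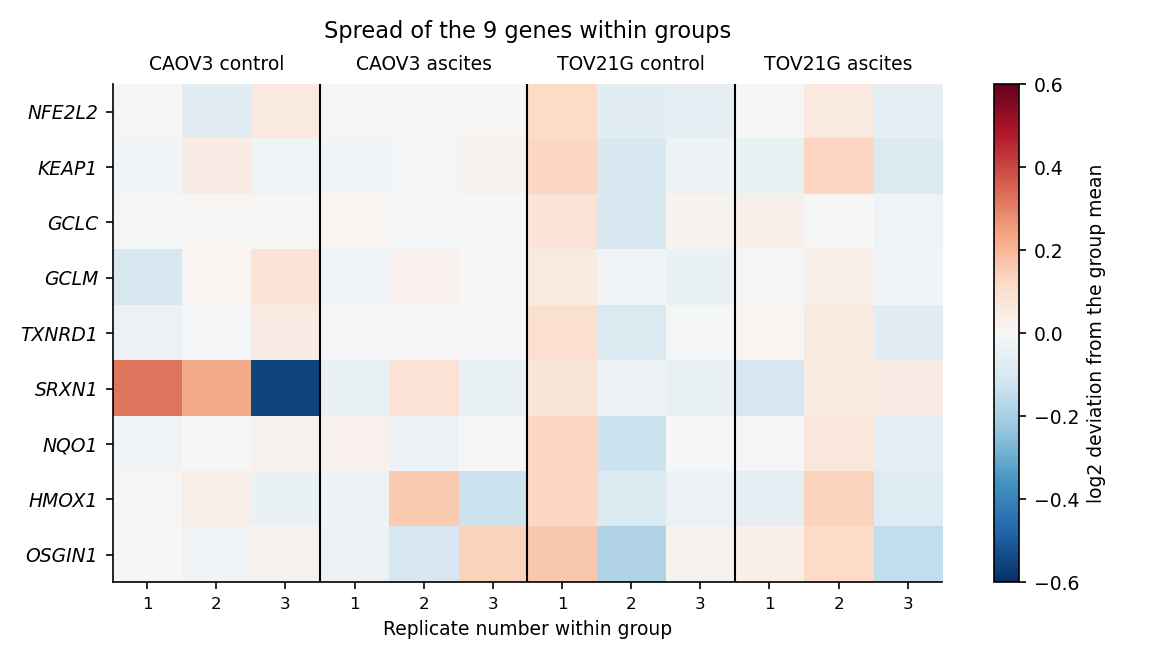
Deviation of each member from its group mean (log2) in each of the 12 libraries, 1 value per member and library. The 9 values of TOV21G control 1 all lie above 0, and most of those of TOV21G ascites 2 do, while those of TOV21G control 2 and TOV21G ascites 3 lie mostly below it.

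Of the 57 other pathway genes tested, few passed for ascites. Over all 66 genes of the lists, in CAOV3 0 rose and 5 fell (7.58%, against the 1.73% background), and in TOV21G 1 rose and 1 fell (3.03%, against 0.409%). The lists were chosen with earlier results of these data known, so these shares are a description and no result about the pathway. No gene of the lists passed for the difference in response. The median log2 change over the lists was -0.01 in CAOV3 and -0.07 in TOV21G. The genes that passed act in NADPH supply, glutathione breakdown, conjugate export, bilirubin formation and steroid or carbonyl reduction, besides a small MAF.

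IDH1, the cytosolic isocitrate dehydrogenase that makes NADPH, fell in both lines. It had 3351, 3245 and 3535 normalised reads in the CAOV3 controls and 2657, 2577 and 2527 with ascites. The groups were far apart, and the log2 change was -0.38 ± 0.04 (SE; limma adjusted p = 0.000293), called in 20 of 20 alternatives. In TOV21G IDH1 had 3287, 3112 and 3233 in the controls and 2745, 2764 and 2631 with ascites. The change of -0.24 ± 0.04 (SE; limma adjusted p = 0.0230) was called in 14 of 20 alternatives. It was lost without TOV21G control 1, TOV21G control 3, TOV21G ascites 1 or TOV21G ascites 3, at adjusted p = 0.0739 to 0.111 in limma, and in a fit of the TOV21G libraries alone (limma adjusted p = 0.161).

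In CAOV3 the other falls were smaller or less stable. GGT1, which breaks down extracellular glutathione, had 636, 597 and 624 in the controls and 545, 517 and 495 with ascites (log2 change -0.25 ± 0.05, SE; limma adjusted p = 0.0205). The call was lost without CAOV3 control 1 or 3 or CAOV3 ascites 2 or 3 (limma adjusted p = 0.0723 to 0.0897). ABCC3, a pump for organic anion conjugates, had 932, 833 and 920, then 741, 717 and 722 with ascites (-0.30 ± 0.06, SE; limma adjusted p = 0.0224). Its call was lost without CAOV3 control 1 or 3 or any single CAOV3 ascites library (limma adjusted p = 0.0594 to 0.0956). BLVRA, biliverdin reductase, which acts after HMOX1, had 1096, 1186 and 1124, then 905, 953 and 975 (-0.27 ± 0.05, SE; limma adjusted p = 0.0227). The BLVRA call was lost without CAOV3 control 2 or 3 or CAOV3 ascites 1 or 2 (limma adjusted p = 0.0673 to 0.106). For each of these genes the ascites and control libraries did not overlap, as was so for 24.2% of all tested genes. These genes were picked for a low p, so this adds little to their calls.

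AKR1C3 had 1311, 1281 and 1321 normalised reads in the CAOV3 controls and 980, 957 and 1029 with ascites (log2 change -0.40 ± 0.09, SE; limma adjusted p = 0.0332). The call was lost without any single CAOV3 library (limma adjusted p = 0.0764 to 0.136), and the similarity of the AKR1C genes may limit it further. With ascites in CAOV3 the summed epithelial markers were above every control, as given above. KRT8 (log2 change 0.29; limma adjusted p = 0.0231) and KRT18 (0.33; limma adjusted p = 0.0102) carried that sum, while KRT19 had a log2 change of -0.06, EPCAM of 0.17 and CDH1 of -0.64, none of which passed (limma adjusted p = 0.624, 0.405 and 0.438). The summed fibroblast markers (4 of 5 listed) were 4200 to 4410 against 4600 to 5340 in the controls. LUM carried that sum, averaging 3647 with ascites against 4196 (log2 change -0.20; limma adjusted p = 0.936). COL3A1 averaged 424 in both groups, and COL1A1 267 against 308 (limma adjusted p = 0.205). COL1A2 passed (limma adjusted p = 0.00461), but at only 0.365 against 2.46 normalised reads. The part of these markers in the falls was not tested. Summed leukocyte markers (3 of 6 listed) were 172 to 223 with ascites and 194 to 214 in the CAOV3 controls.

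MAFF, a stress-inducible small MAF, rose in TOV21G. It had 432, 441 and 387 in the controls and 586, 556 and 545 with ascites, a log2 change of 0.42 ± 0.07 (SE; limma adjusted p = 0.0260), called in 13 of 20 alternatives. It was lost without CAOV3 ascites 3, which enters only through the shared spread, and without TOV21G control 1 or 3 or TOV21G ascites 1 or 3 (limma adjusted p = 0.0530 to 0.116), and in a fit of the TOV21G libraries alone (limma adjusted p = 0.0982). In CAOV3 MAFF had 311, 364 and 342 in the controls and 404, 429 and 422 with ascites. These groups did not overlap, as was so for 24.2% of all tested genes, and the change of 0.30 ± 0.07 (SE; limma adjusted p = 0.0588) did not pass. The CAOV3 change passed with edgeR (adjusted p = 0.0419) and DESeq2 (adjusted p = 0.0413). The difference in response had an adjusted p of 0.646 in limma.

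The genes whose levels ran most like those of the members nearest to a call are given as a description. For NFE2L2 over the 6 CAOV3 libraries, among 11367 genes with a mean of at least 100, they were VEZT (Pearson r = 0.995), SECTM1 (0.993) and DONSON (0.987). For HMOX1 over the 6 TOV21G libraries, among 11446 genes, they were IER5L (0.997), SIRT1 (0.997) and MAN1B1 (0.996). With so many genes and 6 libraries that share groups and scaling, correlations of this size are a ranking only.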

How the data were processed

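The authors deposited, for each of 12 libraries (3 in each of 4 groups), a signal per gene, a normalised read count. In each library the deposited values were whole multiples of 1 step (100% within 0.1 reads), so whole reads were recovered; no header or label records that scaling. Per the submitters' processing notes, Trim Galore, cutadapt, STAR, HTSeq and DESeq were used. Their versions and roles, the build, the kit and strandedness are not given in the sources used here.

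Symbols came from a gene-name table (19087 genes) and GENCODE release 29 (136), and 28 genes stayed unnamed. Genes with a value of at least 10 in at least 3 libraries (17616) were tested with limma 3.58.1 (R 4.3.3; eBayes with trend) on log2(value + 1), all 12 libraries in 1 fit with a mean per group, two-sided, Benjamini-Hochberg adjusted per comparison and called at 0.05. EdgeR 4.0.16 and DESeq2 1.42.0 were run on recovered reads, with other pseudocounts, filters, scalings, subsets and left-out libraries. The fit was tested on simulated data, with 50 genes changed at each size in CAOV3 ascites. It recovered 29 of 50 at 1.25-fold, 44 at 1.5-fold, 49 at 2-fold and 50 at 4-fold. Only genes with a CAOV3 mean of at least 100 were changed, a level that SRXN1 did not reach. Replicates differed beyond the sampling of reads in every pair (chi-square per degree of freedom 1.82 to 26.9), so no library was a copy.

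All 9 members are named. Of the lists, genes called for ascites are named (at most 12 per comparison), and for the lines the 8 with the largest difference each way and a mean of at least 50 in the higher line. For the member nearest a call in each line, the 3 genes with the highest Pearson r are named. The members and lists were chosen with earlier results of these data known.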

Additional observations from a re-analysis of the deposited data

How the results depend on the processing

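All 9 line differences were called in every alternative run. The number of genes called in CAOV3 was 305 as reported, 511 with edgeR, 507 with DESeq2, 1295 with only the libraries of the line, and 172 to 344 with 1 library left out. In TOV21G it was 72 as reported, and 114, 150, 22 and 24 to 136 in the same order. For the difference in response it was 96 as reported, 151 with TMM scaling, 148 with edgeR, 212 with DESeq2 and 40 to 146 with 1 library left out; a fit of only the libraries concerned was not run for it. Members called in TOV21G were 0, and 1 (HMOX1) with DESeq2. Signs changed only for changes near 0: GCLC in TOV21G was 0.015 with TMM scaling and 0.014 with edgeR, and NQO1 in the difference was 0.024 and 0.022. With 1 library left out, log2 changes ran from -0.027 to 0.11 for HMOX1 and -0.012 to 0.075 for GCLM in CAOV3, and from -0.0024 to 0.087 for NFE2L2, -0.058 to 0.027 for GCLC and -0.083 to 0.088 for OSGIN1 in TOV21G. In the difference they ran from -0.068 to 0.061 for NQO1, -0.0071 to 0.077 for GCLC and -0.026 to 0.061 for GCLM. The causes were not tested. The CAOV3 count fell to 193 and 177 without CAOV3 control 1 and 3, and to 194 and 172 without CAOV3 ascites 1 and 2. The TOV21G count fell to 45 without CAOV3 ascites 3, 39 and 24 without TOV21G control 1 and 3, and 40 and 39 without TOV21G ascites 1 and 3; it was 136 without TOV21G ascites 2.

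Replicate numbers were shared by the groups, but same-numbered libraries did not deviate together (correlations -0.069, 0.060 and 0.014 in CAOV3, -0.165, -0.417 and 0.073 in TOV21G), and not every library correlated best with its own number, so the numbers were not used as pairs. Adding a replicate block left 116 calls for CAOV3 ascites, 13 for TOV21G ascites and 9 for the contrast of responses, and all 9 members were still called between the lines. The ascites calls of GGT1, ABCC3, BLVRA and AKR1C3 in CAOV3 and of IDH1 and MAFF in TOV21G were not made under the block (limma adjusted p = 0.117 to 0.264). Depth limits SRXN1 most, with 44 reads in its lowest control library.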
